A study of Homo sapiens and Mus musculus with 24 samples.

Results

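Mucins are heavily O-glycosylated proteins that coat epithelial surfaces, and the intestine makes them in 2 forms, secreted gel-forming mucins and mucins anchored in the cell membrane. The 10 mucin genes described here, MUC1, MUC3A, MUC4, MUC5AC, MUC5B, MUC12, MUC13, MUC15, MUC17 and MUC20, were chosen by name and found in the human count tables by matching Ensembl identifiers to gene symbols, which gave 10 of 58051 gene identifiers. MUC13 was the most abundant of them in every Caco-2 library. It rose 2.23-fold in the DNMT3A-deficient line against the wild-type line and was lower again in both lines labelled as carrying a DNMT3A isoform. MUC20 rose 1.64-fold in the deficient line and fell below the wild-type level in the line labelled DNMT3A2. MUC3A did not pass the test in any comparison, and the other 7 genes had too few reads to enter it.

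Gel-forming mucins are stored in the granules of goblet cells and build the mucus layer, with MUC2 as the main one of the colon, MUC5AC typical of the stomach and airway surface and MUC5B of airway and salivary glands. Membrane mucins stand on the apical surface of enterocytes and other epithelial cells, where MUC3A, MUC12, MUC13 and MUC17 form much of the brush border glycocalyx, while MUC1 and MUC4 also signal through their cytoplasmic tails or through the receptor ERBB2. MUC20 is a small membrane mucin that binds the hepatocyte growth factor receptor MET. DNMT3A adds methyl groups to cytosines of CG pairs in DNA that carried none before, and is made as a long isoform, DNMT3A1, and a short isoform, DNMT3A2.

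RNA was sequenced from Caco-2, a human colorectal adenocarcinoma line that resembles small intestinal enterocytes when it differentiates. Wild-type cells (WT, 4 libraries), cells in which DNMT3A had been disrupted with CRISPR-Cas9 (ΔDNMT3A, 4 libraries) and ΔDNMT3A cells carrying a TY1-tagged DNMT3A1 (3 libraries) or DNMT3A2 (4 libraries) were compared, so that the isoform lines also carry the disruption. Per the study's methods the deficient line and the isoform lines were each expanded by limiting dilution, the isoforms sat on a piggyBac insert behind a CMV promoter, and the isoform lines were grown under puromycin. Line and genotype therefore cannot be told apart. Nothing in the labels says that the libraries of a line came from separate cultures, so the p-values measure the spread between these samples, which may be technical. In bulk RNA, fewer cells that express a gene and less RNA per cell cannot be told apart either. Depth ran from 22104408 to 42161299 reads assigned to genes per library, with a median of 30442451. Levels are given in CPM, the reads assigned to a gene scaled to a common library size with factors from the trimmed mean of M values (TMM), and adjusted p-values are those of the edgeR quasi-likelihood F test after the Benjamini-Hochberg procedure across every gene that entered it. The threshold was 0.05, and ± after a log2 fold change gives its standard error.

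DNMT3A itself had 61.9 to 67.1 CPM in the WT libraries, 19.3 to 22.3 in ΔDNMT3A, 36.6 to 39 in DNMT3A1 and 20.1 to 23.5 in DNMT3A2. The disruption thus left DNMT3A RNA at 0.319 of WT (log2 fold change -1.65 ± 0.0428, SE, n = 4 and 4, edgeR quasi-likelihood test, adjusted p = 4.3e-20). It was 1.83-fold higher in DNMT3A1 than in ΔDNMT3A. In DNMT3A2 the difference from ΔDNMT3A was 0.07 ± 0.0574 on the log2 scale (adjusted p = 0.272). Gene-level RNA thus did not show re-expression there, and that line is called the line labelled DNMT3A2 below. The 50 tested genes flanking DNMT3A on its chromosome had a median log2 fold change of -0.65 in that line against ΔDNMT3A. In DNMT3A1 against ΔDNMT3A their median was 0.12. Whether the lower level of the region masked RNA of the inserted isoform was not tested. By western blot, the study reported complete loss of DNMT3A in ΔDNMT3A and re-expression of both isoforms. By immunofluorescence it reported no DNMT3A in ΔDNMT3A and both re-expressed isoforms in the nuclei. These protein data are not analysed here. All 7 epithelial markers fixed for the check, EPCAM and the keratins among them, were above 3 reads in all 15 libraries. Of 10 goblet cell markers, 5 were above 3 reads in all libraries, and MUC2, ATOH1 and CLCA1 were at or below 3 reads in every one. The summed level of the goblet markers ran from 157.6 to 169.9 CPM in WT, 254.0 to 274.2 in ΔDNMT3A, 293.1 to 318.0 in DNMT3A1 and 154.6 to 160.7 in the line labelled DNMT3A2, most of it from AGR2, and that of 12 enterocyte markers from 1449.6 to 1526.9, 1739.0 to 1855.0, 2797.0 to 2981.0 and 1233.5 to 1331.7. In DNMT3A1 against ΔDNMT3A the enterocyte sum does not stand for each marker. Of the 11 tested there, 5 were higher and 5 lower (median log2 fold change -0.09). Beside them, 30.4% and 30.3% of all genes tested were higher and lower. DPP4 alone averaged 544.0 CPM in ΔDNMT3A and 1323.5 in DNMT3A1. In ΔDNMT3A against WT, 8 of 11 were higher and 1 lower (median 0.22), beside 31.2% and 31.0% of all genes. In the line labelled DNMT3A2 against ΔDNMT3A, 1 of 11 was higher and 10 were lower (median -1.39), beside 33.8% and 34.1%. The part of the shifts in summed levels in the mucin results was not tested.

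The promoters of MUC13 and MUC3A are shown because MUC13 carried most of the mucin reads and MUC3A is the most abundant member that passed no test. Each is the RefSeq window on GRCh38.p14 of 250 bases before to 50 after the transcription start, 5′ to 3′ on the gene's strand, with the CG pairs, the targets of DNMT3A, in capitals. MUC13 lies on the minus strand, at chr3:124934702-124935001, inside the span of the gene in the files, and MUC3A on the plus strand, at chr7:100949284-100949583.
MUC13: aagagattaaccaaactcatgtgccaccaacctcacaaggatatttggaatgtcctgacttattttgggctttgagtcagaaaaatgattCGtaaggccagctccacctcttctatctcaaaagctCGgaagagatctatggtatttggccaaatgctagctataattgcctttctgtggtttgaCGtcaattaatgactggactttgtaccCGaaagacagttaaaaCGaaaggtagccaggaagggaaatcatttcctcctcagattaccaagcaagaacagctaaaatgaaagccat
MUC3A: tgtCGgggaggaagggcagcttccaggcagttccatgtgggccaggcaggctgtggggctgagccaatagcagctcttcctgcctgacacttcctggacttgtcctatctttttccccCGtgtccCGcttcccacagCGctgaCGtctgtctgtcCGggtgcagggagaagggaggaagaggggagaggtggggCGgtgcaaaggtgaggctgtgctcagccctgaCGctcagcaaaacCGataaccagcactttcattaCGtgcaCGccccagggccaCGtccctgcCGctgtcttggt
The MUC13 window held 5 CG pairs and the MUC3A window 13, against a median of 14 over the 35116 promoters of the table. A promoter with as few CG pairs as MUC13, or fewer, made up 33.7% of that table, and 49.7% for MUC3A. The table held a promoter for 6 members, with 13 CG pairs in MUC1, 12 in MUC4, 8 in MUC12 and 4 in MUC17. The methylation of these CG pairs is not analysed here, and the counts describe the sequence alone.

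The members differed widely in level, and most were near the limit of detection. Per gene length, in RPKM, which is CPM divided by the length in kilobases (mean of 15 libraries), MUC13 was at 0.919, MUC20 at 0.155, MUC3A at 0.0705 and MUC1 at 0.0168, and the other 6 were at or below 0.00472. Among the 13759 genes with a mean of at least 1 CPM the median was 5.7 RPKM, and MUC13 was the only member in that class. MUC13 exceeded MUC20 in 15 of 15 libraries, MUC20 exceeded MUC3A in 13 and MUC3A exceeded MUC1 in 15. MUC1 exceeded MUC5AC in 11 libraries, MUC5AC exceeded MUC4 in 10, MUC4 exceeded MUC17 in 9 and MUC17 exceeded MUC5B in 6, so the order of these neighbours was not resolved beyond the spread of libraries. MUC12 had 4 reads and MUC15 none in all libraries together, and 3 reads in a library, the floor used here, correspond to 0.071 to 0.136 CPM. Of the 2389 reads assigned to the 10 genes, 64.1% came from MUC13.

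**Figure D1:**
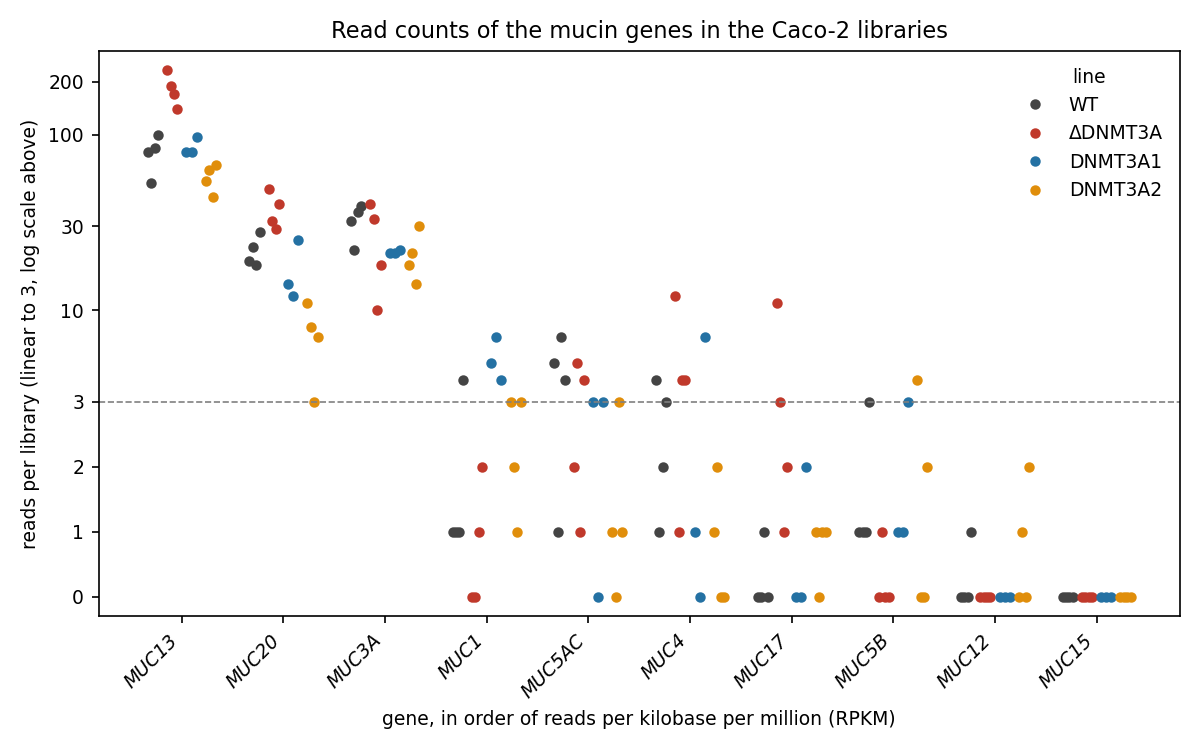
Reads assigned to each of the 10 mucin genes in each Caco-2 library (y axis, linear up to 3 reads and logarithmic above), with genes ordered by mean RPKM, 1 point per library and colours for the 4 lines. The dashed line marks the floor of 3 reads, above which MUC13 and MUC3A stand in all 15 libraries and MUC20 in 14.

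The first comparison asked which genes change when DNMT3A is disrupted. MUC13, the transmembrane mucin of the intestinal glycocalyx, had 2.36, 1.92, 2.68 and 2.57 CPM in the WT libraries and 5.54, 5.62, 5.74 and 4.62 CPM in ΔDNMT3A. Every ΔDNMT3A library was above every WT library. The WT mean was 2.38 ± 0.335 CPM (SD, n = 4), and ΔDNMT3A averaged 5.38 ± 0.516 CPM (SD, n = 4). The edgeR log2 fold change was 1.16 ± 0.108, with an adjusted p of 1.73e-09 over 16654 genes tested. MUC20 had 0.567, 0.833, 0.574 and 0.72 CPM in WT and 1.17, 0.947, 0.98 and 1.33 CPM in ΔDNMT3A. Here too the groups did not overlap, although the highest WT library came close to the lowest ΔDNMT3A library, and the log2 fold change was 0.71 ± 0.209 (adjusted p = 0.00503). MUC3A, a membrane mucin of the enterocyte brush border, had 0.955, 0.797, 1.15 and 1.0 CPM in WT and 0.955, 0.977, 0.338 and 0.598 CPM in ΔDNMT3A. The groups overlapped and ΔDNMT3A libraries differed among themselves by more than the lines did, so that the log2 fold change of -0.42 ± 0.25 (adjusted p = 0.152) was not past the threshold. Of the 3 members tested, 2 thus rose and none fell. Of all genes tested 62.2% passed the threshold, with 31.2% of all tested higher and 31.0% lower. With so large a share of the transcriptome changed, a count of 2 in 3 is near the background.

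Of the libraries used, replicates 1 and 2 of each line were sequenced in lane 5 and replicates 3 and 4 in lane 6, per the run names. For DNMT3A1, only replicate 4 was available in lane 6. For MUC13 the log2 ratio of mean CPM, ΔDNMT3A over WT, was 1.38 in lane 5 and 0.98 in lane 6, and for MUC20 it was 0.60 and 0.84. For MUC3A it was 0.14 in lane 5 and -1.20 in lane 6, with opposite signs. The low MUC3A values were those of the ΔDNMT3A libraries of lane 6, and with lane as a term in the fit the adjusted p was 0.12, within a range of 0.0656 to 0.456 over all alternatives.

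**Figure D2:**
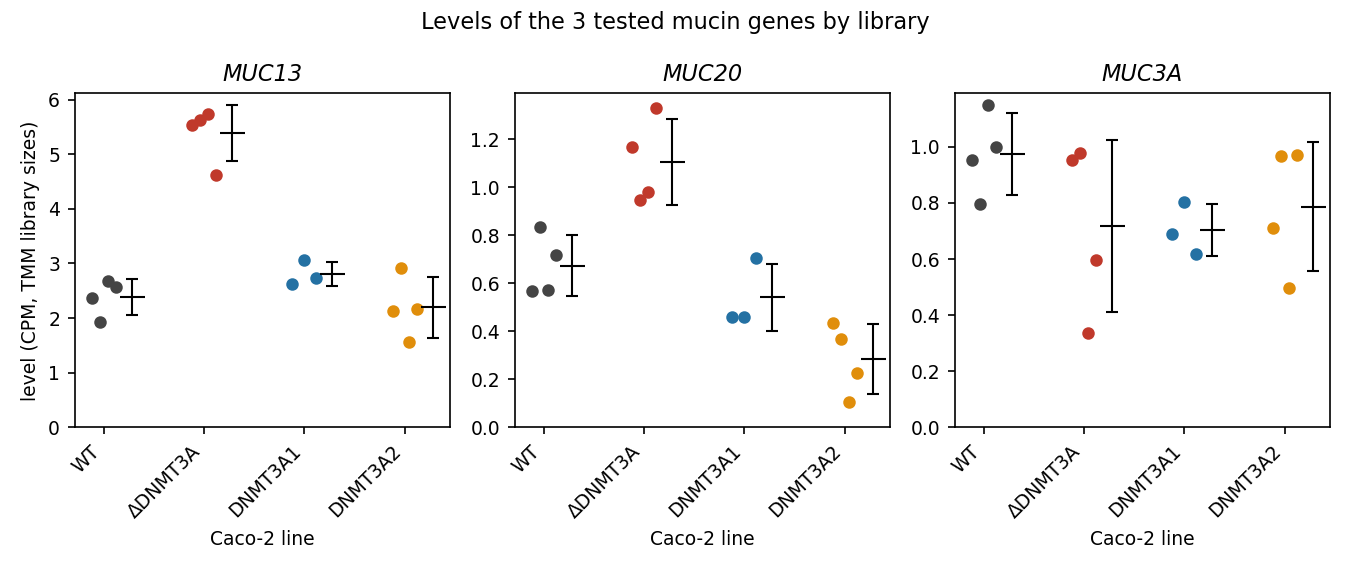
Level of MUC13, MUC20 and MUC3A in CPM on TMM library sizes (y axis, from 0, scaled separately per gene) in the 4 Caco-2 lines, 1 point per library, with the mean and SD in black beside the points. The ΔDNMT3A libraries stand above all others for MUC13 and MUC20, and the lines overlap for MUC3A.

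The second question was which of these levels return when an isoform is put back into ΔDNMT3A. In DNMT3A1, MUC13 had 2.63, 3.06 and 2.73 CPM, all below the lowest ΔDNMT3A library. The log2 fold change against ΔDNMT3A was -0.95 ± 0.117 (n = 3 and 4, adjusted p = 6.69e-07). MUC20 had 0.46, 0.459 and 0.704 CPM, again without overlap, and fell by 1.00 ± 0.252 on the log2 scale (adjusted p = 0.00187). MUC3A had 0.689, 0.804 and 0.619 CPM, inside the ΔDNMT3A range, and its log2 fold change was -0.08 ± 0.304 (adjusted p = 0.834). Of the 3 members tested 2 were lower and none higher, against 60.7% of genes past the threshold, 30.4% higher and 30.3% lower.

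In the line labelled DNMT3A2, MUC13 had 2.13, 2.91, 1.56 and 2.17 CPM. All 4 were below every ΔDNMT3A library, and the log2 fold change was -1.33 ± 0.132 (n = 4 and 4, adjusted p = 4.58e-09). MUC20 had 0.434, 0.369, 0.106 and 0.227 CPM, the lowest values of the gene in the series, and the log2 fold change was -2.0 ± 0.297 (adjusted p = 2.53e-06). The library with 0.106 CPM held 3 reads of MUC20. MUC3A had 0.711, 0.968, 0.495 and 0.972 CPM, overlapping ΔDNMT3A, and its log2 fold change was 0.08 ± 0.29 (adjusted p = 0.831). Again 2 of 3 tested members were lower and none higher, against 67.9% of genes past the threshold, 33.8% higher and 34.1% lower. Both isoform comparisons use the same 4 ΔDNMT3A libraries.

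Against WT, no member passed the threshold in DNMT3A1 by edgeR, none of the 3 had an unadjusted p below 0.05 by edgeR or by DESeq2 with low counts filtered, and DESeq2 called 0, where 65.3% of all genes tested passed. The log2 fold changes of DNMT3A1 over WT were 0.22 ± 0.139 for MUC13 (95% interval -0.05 to 0.49, adjusted p = 0.175), -0.28 ± 0.281 for MUC20 (interval -0.83 to 0.27, adjusted p = 0.39) and -0.49 ± 0.239 for MUC3A (interval -0.96 to -0.02, adjusted p = 0.074). The MUC3A interval, drawn from the standard error, left out 0 although the unadjusted p of the F test was 0.0502, and with no filter on low counts the unadjusted p was 0.0465 and the adjusted p 0.12. MUC3A passed only when WT replicate 2 was left out (-0.57, adjusted p = 0.0455), within a range of 0.0455 to 0.217 over all alternatives. In the line labelled DNMT3A2, 1 of 3 tested members was lower than in WT and none higher, against 68.7% of genes past the threshold and 34.4% lower. That member was MUC20, whose libraries did not overlap with WT (log2 fold change -1.29 ± 0.33, adjusted p = 0.000973). MUC13 differed from WT by -0.17 ± 0.156 (interval -0.48 to 0.14, adjusted p = 0.344) and MUC3A by -0.34 ± 0.233 (interval -0.80 to 0.12, adjusted p = 0.199).

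Set directly against each other, the isoform lines differed in MUC20 and, narrowly, in MUC13. MUC20 was 1.99-fold higher in DNMT3A1 than in the line labelled DNMT3A2 (log2 fold change 1.00 ± 0.382, adjusted p = 0.0238) and its libraries did not overlap. The gap was narrow, with 0.459 CPM (12 reads) in the lowest DNMT3A1 library and 0.434 CPM (11 reads) in the highest of the other line. MUC13 was 1.30-fold higher (0.38 ± 0.166, adjusted p = 0.0484) with overlapping libraries. MUC3A gave -0.16 ± 0.278 (adjusted p = 0.619). Of the 3 tested members 2 were higher and none lower, against 68.5% of genes past the threshold, 34.5% higher and 33.9% lower. These 2 calls were weak, since DESeq2 called neither gene (adjusted p = 0.0763 for MUC20 and 0.1 for MUC13) and leaving out 1 library gave 0 to 2 calls. Over all alternatives the adjusted p ran from 0.00907 to 0.157 for MUC20 and from 0.00837 to 0.195 for MUC13. MUC20 lost its call without DNMT3A2 replicate 3 or 4 or DNMT3A1 replicate 4, and MUC13 without any library of either line but DNMT3A2 replicate 2. In lane 5 the log2 ratio of MUC20 was 0.19 and in lane 6, with a single DNMT3A1 library, 2.08. For MUC13 it was 0.18 and 0.55.

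**Figure D3:**
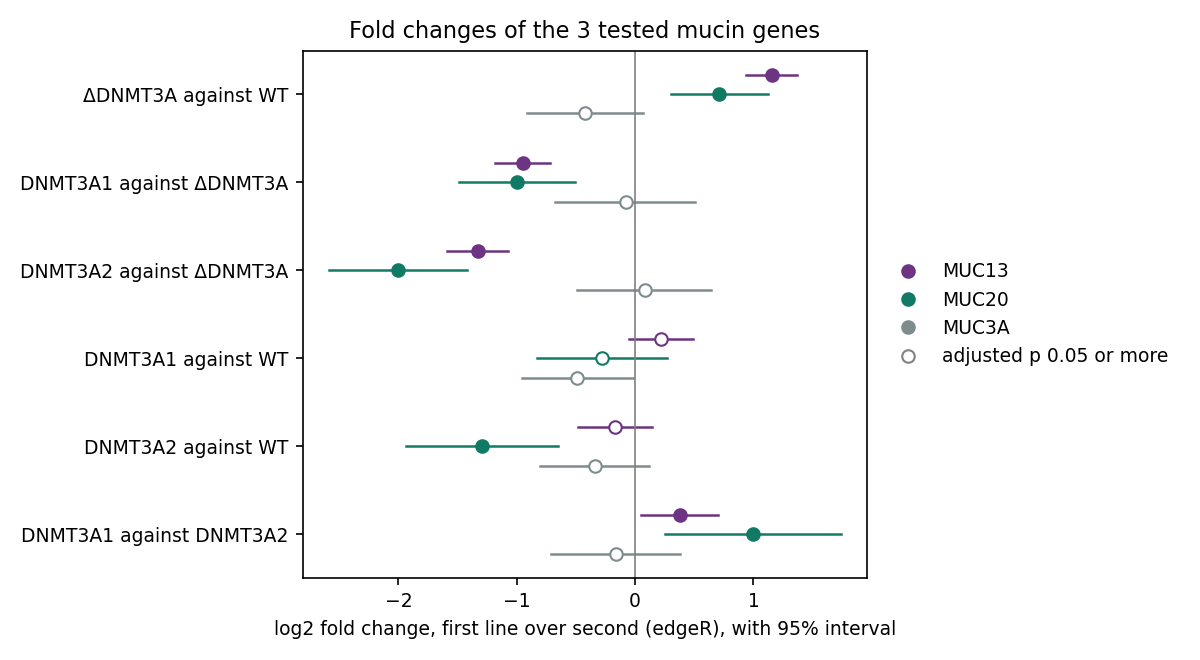
Log2 fold change of MUC13, MUC20 and MUC3A in 6 comparisons of the Caco-2 lines (x axis, first line over second), with bars for the 95% interval from the standard error. Filled points have an adjusted p below 0.05, and MUC13 and MUC20 lie right of 0 in ΔDNMT3A against WT and left of it in both isoform lines against ΔDNMT3A.

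The other 7 members did not pass the filter on low counts in any comparison, so their reads are given as counts. MUC17, a membrane mucin of the brush border at chr7:101020072-101058745, had 0, 0, 1 and 0 reads in the WT libraries and 11, 3, 1 and 2 in ΔDNMT3A. Most of the 17 ΔDNMT3A reads lay in replicate 1, and the other 3 libraries held 6. The ratio of the summed reads was 15.9 per assigned read, with an exact interval of 2.48 to 662.5 that covers counting error only, and with no filter on low counts the adjusted p was 0.00373 (where 31.6% of 34025 genes passed). In DNMT3A1 it had 0, 0 and 2 reads and in the line labelled DNMT3A2 1, 0, 1 and 1, neither of which passed against ΔDNMT3A without the filter (adjusted p = 0.058 and 0.0648).

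MUC1, the broadly expressed cell surface mucin at chr1:155185824-155192916, had 1, 1, 1 and 4 reads in WT, 0, 0, 1 and 2 in ΔDNMT3A, 5, 7 and 4 in DNMT3A1 and 3, 2, 1 and 3 in the line labelled DNMT3A2. Every DNMT3A1 library was above every ΔDNMT3A library. The ratio of 16 to 3 reads was 7.96 per assigned read (exact interval 2.28 to 42.6), with an adjusted p of 0.00636 when no filter was set, where 31.2% of genes passed. In CPM the DNMT3A1 libraries were also above every WT library, at 0.113 against 0.103 at the nearest, each with 4 reads. There the ratio of 16 to 7 reads was 3.18 (exact interval 1.24 to 9.14). With no filter its adjusted p of 0.0714 was not past the threshold. MUC4, a ligand of ERBB2 at chr3:195746765-195812277, had 4, 1, 2 and 3 reads in WT, 12, 1, 4 and 4 in ΔDNMT3A, 1, 0 and 7 in DNMT3A1 and 1, 2, 0 and 0 in the line labelled DNMT3A2. Its 3 reads in that line against 21 in ΔDNMT3A gave a ratio of 0.18 (exact interval 0.0344 to 0.603, adjusted p = 0.0191 with no filter, where 35.2% of genes passed), and 12 of the 21 were from ΔDNMT3A replicate 1, without which the groups held 3 and 9 reads. The library with 12 reads of MUC4 and 11 of MUC17 was the deepest, with 42161299 reads, and the part of depth in these values was not tested.

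MUC5AC and MUC5B, the secreted mucins among the members, and also MUC12 and MUC15 had few reads or none. MUC5AC at chr11:1157953-1201138 had at most 7 reads in a library, with 17 in the WT libraries together, 12 in ΔDNMT3A, 6 in DNMT3A1 and 5 in the line labelled DNMT3A2. MUC5B at chr11:1223066-1262172 had at most 4, with 6, 1, 5 and 6 in the same order. Neither passed against any line with the filter left out (lowest adjusted p 0.144). MUC12 at chr7:100969623-101018949 reached 2 reads in 1 library and MUC15 at chr11:26559033-26572233 had none in 15. For MUC5AC the ratio of summed reads in the line labelled DNMT3A2 over WT was 0.345 per assigned read, with an exact interval of 0.0996 to 0.975 for counting error only and an adjusted p of 0.164 with no filter.

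The counts of MUC20 need care, because a near-identical copy and an overlapping transcript lie beside it on chromosome 3. In the files MUC20 lies at chr3:195720882-195741123 on the plus strand of GRCh38, and the noncoding gene MUC20-OT1 overlaps it on the same strand. MUC20-OT1 had 552 to 1592 reads per library, against at most 49 for MUC20. The counting command named no option for reads that overlap more than 1 gene or map to more than 1 place, which by default are not counted, so the MUC20 values rest on the reads unique to it. MUC20-OT1 was 0.29 ± 0.0432 lower on the log2 scale in ΔDNMT3A than in WT (adjusted p = 2.44e-06), opposite to MUC20. It ran in the direction of MUC20 in the line labelled DNMT3A2, at -0.41 ± 0.0496 against ΔDNMT3A and -0.71 ± 0.0461 against WT (adjusted p = 1.03e-07 and 2.29e-14), and in DNMT3A1 against that line, at 0.40 ± 0.0541 (adjusted p = 3.89e-07). In DNMT3A1 it was at -0.01 ± 0.0549 against ΔDNMT3A (adjusted p = 0.869) and at -0.30 ± 0.0505 against WT (adjusted p = 1.18e-05). The pseudogene MUC20P1 had 8, 11, 7 and 21 reads in the WT libraries, 42, 23, 16 and 27 in ΔDNMT3A, 16, 9 and 16 in DNMT3A1 and 2, 6, 1 and 2 in the line labelled DNMT3A2. It rose in ΔDNMT3A (log2 fold change 1.13 ± 0.293, adjusted p = 0.00172) and was lower in DNMT3A1 and in the line labelled DNMT3A2 than in ΔDNMT3A (-0.83 ± 0.29 and -2.89 ± 0.417, adjusted p = 0.0183 and 1.71e-06), each time in the direction of MUC20. In DNMT3A1 against WT MUC20P1 was at 0.31 ± 0.355 (adjusted p = 0.455), opposite in sign to the -0.28 of MUC20, and neither passed the threshold. MUC20P1 did not enter the test in the line labelled DNMT3A2 against WT or in DNMT3A1 against that line. Whether reads of MUC20 were assigned to MUC20P1, or the reverse, was not tested. No annotated gene of the files overlapped MUC13, and the gene opposite MUC3A had at most 5 reads.

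The chromosomal neighbours of each tested member were read as context, as the median log2 fold change of the 25 tested genes on either side, members left out. For MUC13 at chr3:124905442-124953819 it was -0.02 in ΔDNMT3A against WT, 0.11 in DNMT3A1 against ΔDNMT3A and 0.02 in the line labelled DNMT3A2 against ΔDNMT3A. For MUC20 it was -0.22, -0.03 and -0.03, opposite in sign to MUC20 in the first comparison. Against WT the neighbours of MUC20 were at -0.25 in DNMT3A1 and -0.37 in the line labelled DNMT3A2, beside -0.28 and -1.29 for the gene, and those of MUC13 at 0.13 and -0.04, beside 0.22 and -0.17. For MUC3A at chr7:100949555-100968346, beside MUC12 and MUC17, it was -0.39, -0.06 and 0.06, close to the -0.42, -0.08 and 0.08 of MUC3A itself. Those values of MUC3A had standard errors of 0.25, 0.304 and 0.29 and were not past the threshold. Against WT the neighbours of MUC3A also had medians of -0.48 in DNMT3A1 and -0.41 in the line labelled DNMT3A2, beside -0.49 and -0.34 for the gene. The median over all genes tested was between 0.00 and 0.01 in every comparison.

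To show which genes ran most like each of the 3 tested members, the 4 line means of log2 CPM were centred and compared over the 13758 other genes with a mean of at least 1 CPM. The nearest to MUC13 were VWA5A, CTSS and EIF5A2, with root mean square differences of 0.054, 0.061 and 0.079. VWA5A had 1.45, 3.02, 1.70 and 1.34 CPM in WT, ΔDNMT3A, DNMT3A1 and the line labelled DNMT3A2. CTSS, the lysosomal protease cathepsin S, had 1.00, 2.16, 1.22 and 0.985 CPM in the same order. The nearest to MUC20 were MPP1, RDH10 and TNS2, at 0.026, 0.049 and 0.068. MPP1 had 27.2, 41.9, 23.2 and 12.9 CPM and RDH10, a retinol dehydrogenase, 74.3, 114.1, 60.5 and 32.0. The nearest to MUC3A were PCMTD2, TM9SF4 and ZNF398, at 0.015, 0.020 and 0.020. With only 4 line means per gene, profiles this close are found by search among many genes, and they are given as a description.

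Among other mucins and mucin-like glycoproteins, 3 of the 12 found in the files were tested. In ΔDNMT3A against WT none was higher and 2 were lower, where 31.2% of all genes tested were higher and 31.0% lower. In DNMT3A1 against ΔDNMT3A 3 were higher and none lower, beside 30.4% and 30.3% of all genes. In the line labelled DNMT3A2 against ΔDNMT3A 2 were higher and 1 lower, beside 33.8% and 34.1%. PODXL, the sialomucin podocalyxin, had 271.3 to 281.0 CPM in WT and 124.6 to 138.0 in ΔDNMT3A, a log2 fold change of -1.09 ± 0.0291 (adjusted p = 7.87e-20). It was higher than ΔDNMT3A again in DNMT3A1 (0.19 ± 0.0377, adjusted p = 0.000207) and in the line labelled DNMT3A2 (0.67 ± 0.0279, adjusted p = 6.41e-16). Against WT PODXL stayed lower in both, at -0.89 ± 0.034 and -0.42 ± 0.0229 (adjusted p = 1.27e-17 and 3.9e-16). CD164, the sialomucin endolyn, named after its values were seen, fell by 0.09 ± 0.0272 on the log2 scale in ΔDNMT3A (adjusted p = 0.00498), with overlapping libraries. In mean RPKM over all libraries CD164 was at 47.4 and PODXL at 28.2, far above the 0.919 of MUC13. The gel-forming MUC2 and MUC6 and the membrane mucin MUC16 had at most 3 reads in a library.

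The enzymes that build the O-linked sugar chains of mucins ranged from 0.00112 RPKM (GALNT14) to 32.6 RPKM (GALNT6) in the mean of all libraries. Of 31 genes of the list, 25 were tested in ΔDNMT3A against WT, of which 14 were higher, 7 lower and 4 not past the threshold, with a median log2 fold change of 0.23 against 0.00 for all genes tested. Of all genes tested 31.2% were higher and 31.0% lower. The largest falls, named after their values were seen, were in B3GNT3, GALNT3 and GALNT7. Their log2 fold changes were -2.60 ± 0.376, -1.01 ± 0.0381 and -0.68 ± 0.0734 (adjusted p = 1.86e-06, 5.95e-17 and 1.91e-08). B3GNT3 had 1 to 5 reads per ΔDNMT3A library. The largest rise, also named after its values were seen, was in B3GALT5, at 3.73 ± 0.365 (adjusted p = 3.58e-09). B3GALT5 was below the mean of 1 CPM set for named genes. It had 1 to 3 reads per WT library, 20 to 38 in ΔDNMT3A and 0 to 2 in each isoform line. Its fold changes thus rest on libraries at or below the floor of 3 reads. GALNT5, one of the transferases that attach the first N-acetylgalactosamine, had 5.40 to 7.14 CPM in WT and 52.4 to 62.0 in ΔDNMT3A, a log2 fold change of 3.2 ± 0.0701 (adjusted p = 2.06e-21). It had 23.3 to 24.9 CPM in DNMT3A1 and 8.70 to 9.65 in the line labelled DNMT3A2, both lower than ΔDNMT3A (-1.22 ± 0.06 and -2.61 ± 0.0598). GALNT18 rose by 1.39 ± 0.172 and ST6GALNAC1, which caps the first sugar with sialic acid, by 1.12 ± 0.212 on the log2 scale (adjusted p = 1.73e-07 and 6.47e-05). Neither differed past the threshold between DNMT3A1 and ΔDNMT3A (-0.07 ± 0.164 and 0.02 ± 0.211), while in the line labelled DNMT3A2 GALNT18 was lower (-1.56 ± 0.181) and ST6GALNAC1 higher (0.62 ± 0.164).

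In DNMT3A1 against ΔDNMT3A 6 of 25 tested O-glycosylation genes were higher and 11 lower (median -0.15), beside 30.4% and 30.3% of all genes. In the line labelled DNMT3A2 against ΔDNMT3A 4 of 24 were higher and 18 lower (median -0.58), beside 33.8% and 34.1%. With the isoform lines set against each other, 16 of 24 genes were higher and 7 lower in DNMT3A1 (median 0.52), beside 34.5% and 33.9%. The list was chosen with earlier results of these libraries known, and these counts describe it beside the shares given above for all genes.

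**Figure D4:**
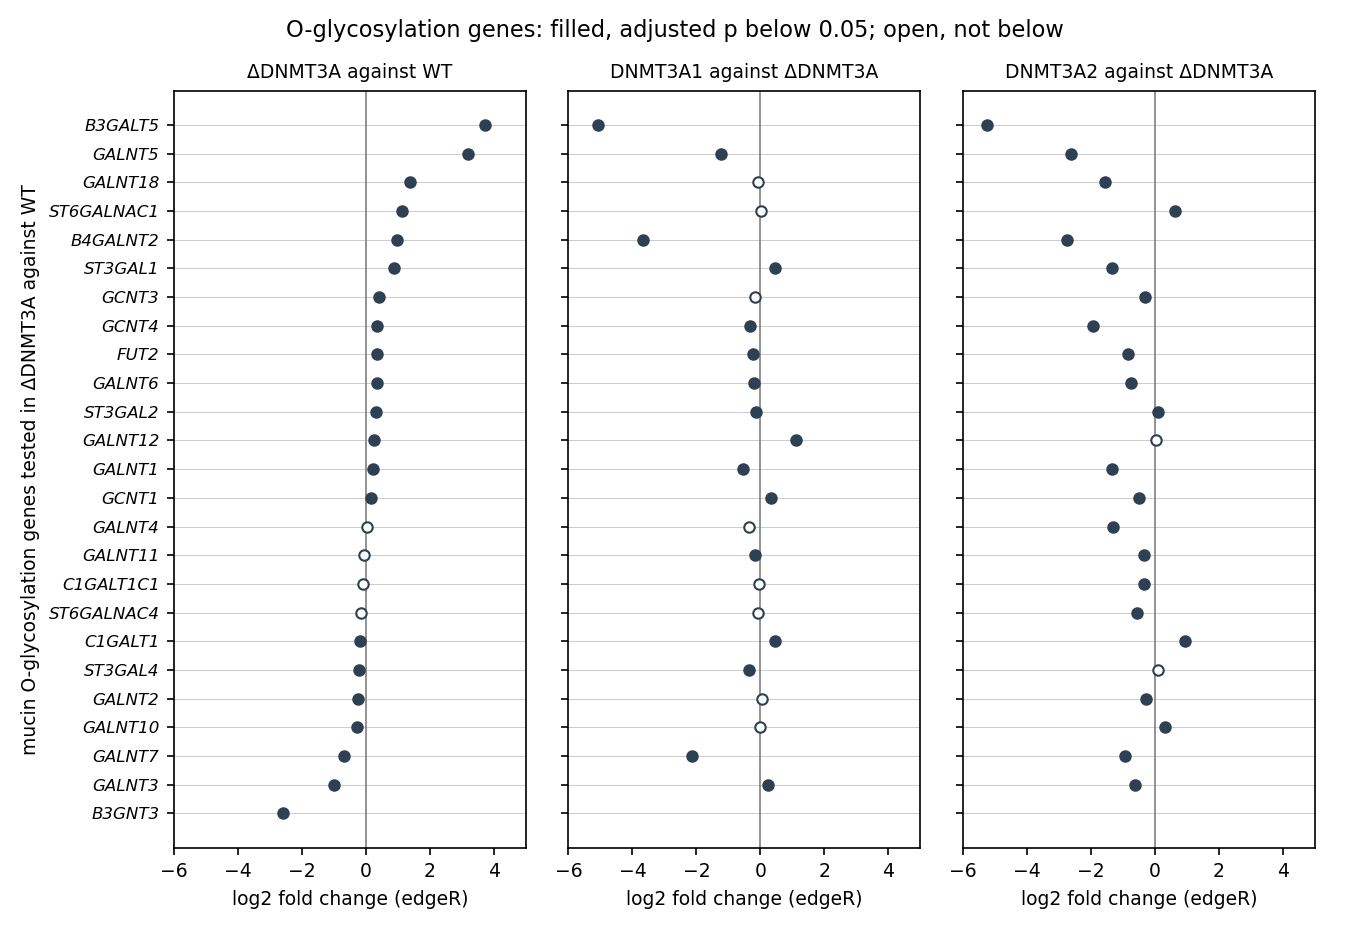
Log2 fold change (x axis) of the 25 O-glycosylation genes tested in ΔDNMT3A against WT (rows, ordered by that change) in 3 comparisons, with filled points for an adjusted p below 0.05, open points otherwise and no point where a gene was not tested. B3GALT5, with at most 3 reads per library outside ΔDNMT3A, lies furthest right at 3.73 in the first panel and furthest left in the others. GALNT5 comes next at 3.2 in the first panel and lies left of 0 in the others. In DNMT3A2 against ΔDNMT3A, 18 genes were past the threshold and lower.

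Of 19 genes of the goblet cell granule, 12 had enough reads to be tested in ΔDNMT3A against WT. Of these, 7 were higher and 2 lower (median 0.60), where 31.2% of all genes tested were higher and 31.0% lower. AGR3, a disulfide isomerase family member, rose by 1.62 ± 0.238, the lectin ZG16 by 1.04 ± 0.137 and the trefoil peptide TFF1 by 0.87 ± 0.163 on the log2 scale (adjusted p = 2.39e-06, 4.81e-07 and 5.85e-05). The 2 that fell, named after their values were seen, were the trefoil peptide TFF3 (-0.58 ± 0.107, adjusted p = 4.5e-05) and SYTL4, a synaptotagmin-like protein of granule exocytosis (-1.02 ± 0.282, adjusted p = 0.00304). ZG16 had 1.67 to 2.55 CPM in WT, 3.49 to 4.82 in ΔDNMT3A, 3.90 to 8.62 in DNMT3A1 and 0.75 to 1.65 in the line labelled DNMT3A2. TFF1 was also higher in DNMT3A1 (0.93 ± 0.123) and in the line labelled DNMT3A2 (0.42 ± 0.128) than in ΔDNMT3A. Of the tested granule genes 4 of 12 were higher and 1 lower in DNMT3A1 against ΔDNMT3A, and 4 of 11 higher and 5 lower in the line labelled DNMT3A2, where 30.4% and 33.8% of all genes were higher and 30.3% and 34.1% lower. The count of 4 higher in the latter was 1 without DNMT3A2 replicate 3 and 2 without ΔDNMT3A replicate 1 or 2 or DNMT3A2 replicate 4, and the 1 lower gene in DNMT3A1 became 0 or 2 depending on the library left out.

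Among transcription factors of the intestinal lineages, 6 of 17 tested were higher and 9 lower in ΔDNMT3A against WT (median -0.14), beside 31.2% and 31.0% of all genes. In DNMT3A1 against ΔDNMT3A 6 were higher and 4 lower, beside 30.4% and 30.3%, and in the line labelled DNMT3A2 5 were higher and 7 lower, beside 33.8% and 34.1%. The count of 5 higher fell to 2 without DNMT3A2 replicate 1 or without replicate 2, and to 3 without ΔDNMT3A replicate 1 or 4. KLF4, a factor of goblet cell maturation, rose from 2.30 to 3.19 CPM in WT to 5.98 to 7.12 in ΔDNMT3A (log2 fold change 1.22 ± 0.1, adjusted p = 1.6e-10) and was at 10.7 to 12.4 in the line labelled DNMT3A2. GFI1, a factor of the secretory lineage, rose by 0.75 ± 0.128 and had 2.60 to 2.89 CPM in ΔDNMT3A, 2.18 to 3.07 in DNMT3A1 and 1.56 to 1.62 in the line labelled DNMT3A2, beside 1.44 to 1.85 in WT. Against ΔDNMT3A it was at 0.03 ± 0.139 in DNMT3A1 (adjusted p = 0.876) and at -0.76 ± 0.13 in the line labelled DNMT3A2 (adjusted p = 1.74e-05). FOXA1, a regulator of MUC2 transcription, fell by 0.84 ± 0.0334 in ΔDNMT3A and was at 145.2 to 149.2 CPM in DNMT3A1 and 118.3 to 127.3 in the line labelled DNMT3A2, beside 132.7 to 142.9 in WT, from which both differed (0.10 ± 0.0313 and -0.18 ± 0.0269, adjusted p = 0.00537 and 9.22e-07). ATOH1, which commits cells to the secretory lineage, had 0 reads in all 15 libraries.

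Partners of membrane mucins and the proteases that shed them were the last list. In ΔDNMT3A against WT 4 of 15 tested were higher and 7 lower (median -0.08), beside 31.2% and 31.0% of all genes. In DNMT3A1 against ΔDNMT3A 8 were higher and 3 lower, beside 30.4% and 30.3%, and in the line labelled DNMT3A2 7 were higher and 7 lower, beside 33.8% and 34.1%. LGALS3, galectin-3, which cross-links mucin glycans at the cell surface, had 133.1 to 142.1 CPM in WT, 373.7 to 388.9 in ΔDNMT3A, 324.9 to 379.5 in DNMT3A1 and 141.6 to 145.3 in the line labelled DNMT3A2. It rose by 1.47 ± 0.0279 in ΔDNMT3A (adjusted p = 1.33e-22), changed by -0.13 ± 0.0403 in DNMT3A1 and fell by 1.41 ± 0.0234 in the line labelled DNMT3A2 on the log2 scale. ERBB3, the receptor that pairs with ERBB2, fell by 1.13 ± 0.0353 in ΔDNMT3A and was higher again in DNMT3A1 (1.07 ± 0.0396) and in the line labelled DNMT3A2 (0.62 ± 0.0367). MEP1A, the alpha subunit of the brush border protease meprin, had 22.5 to 25.8 CPM in WT, 46.3 to 54.7 in ΔDNMT3A, 229.4 to 250.3 in DNMT3A1 and 30.9 to 35.1 in the line labelled DNMT3A2.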

How the data were processed

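The study sequenced stranded total RNA of Caco-2 cells with paired reads. Per the file headers and the study's methods, the authors removed adapters, mapped read pairs to GRCh38 using STAR 2.5.2b and made the deposited raw counts per gene with featureCounts 1.5.2, counting reverse-stranded read pairs with no option for multi-mapping or overlapping reads. Of 16 samples, 15 were used, and DNMT3A1 replicate 3 was not analysed here. The mouse files of the series were not used.

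Groups came from the labels. For each of 6 comparisons the counts of both lines alone were tested with edgeR 4.0.16 (filterByExpr, TMM, quasi-likelihood F test, Benjamini-Hochberg over all genes tested, threshold 0.05). The standard error was the log2 fold change divided by the root of F, and 95% intervals follow from it. Exact intervals of read ratios and the floor of 3 counts cover counting error only. The test was checked on simulated counts with known changes. Alternatives were DESeq2 1.42.0, no filter, other scalings, a joint fit, a replicate block, lane as a term, removal of a gene length trend, a log2 fold change of at least 1, and leaving out each library. Libraries of a line differed from each other by more than sampling noise. All 10 members were named, and from each list up to 3 genes with the largest absolute change in ΔDNMT3A against WT among those past the threshold, without overlap of libraries and with a mean of at least 1 CPM. The most alike genes were taken by the centred log2 line means with a pseudocount of 0.1 CPM. The members and lists were chosen with earlier results of these data known.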

Additional observations from a re-analysis of the deposited data

Results flagged for a closer look

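MUC1 in WT had a library apart from the others, at 0.103 CPM in replicate 4, which held 4 reads where the other 3 held 1 each. In all, 16 groups were checked for such a library, and the part of chance in this 1 was not tested. The isoform lines differed in their change from ΔDNMT3A for MUC13, by 0.38 on the log2 scale (adjusted p = 0.0484), and for MUC20, by 1.00 (adjusted p = 0.0238), both higher in DNMT3A1 than in the line labelled DNMT3A2 by edgeR. DESeq2 called neither.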

How the results depend on the processing

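The calls of MUC13 and MUC20 in ΔDNMT3A against WT and in both isoform lines against ΔDNMT3A held when any 1 library was left out, with log2 fold changes of MUC13 from 1.07 to 1.22 and of MUC20 from 0.62 to 0.81 in the first. Requiring a log2 fold change of at least 1 left 1 member in ΔDNMT3A against WT, 1 in DNMT3A1 against ΔDNMT3A and 0 in DNMT3A1 against DNMT3A2. In that last comparison, with 2 members past the threshold, DESeq2 gave 0, the replicate block 0, lane as a term 1 and removal of the gene length trend 1, and leaving out 1 library gave 0 to 2. DNMT3A1 against WT gave 0 to 1, with 1 without WT replicate 2. MUC3A, never past the threshold against ΔDNMT3A, changed sign when 1 library was left out, over -0.30 to 0.10 in DNMT3A1 and -0.14 to 0.26 in the line labelled DNMT3A2. The causes were not tested. With the replicate block, MUC13 in DNMT3A1 against DNMT3A2 was 0.24 (adjusted p = 0.191) and MUC20 0.71 (adjusted p = 0.113). Same-numbered libraries did not deviate together (correlations from -0.0328 to 0.0553), so the numbers were not taken to pair samples. Low read numbers kept the other 7 members, with at most 12 reads in a library, out of the filtered tests.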
